A study of Mus musculus with 10 samples.

Results

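Rested CD8+ T cells of mice lacking Dusp2 in these cells were compared with those of floxed controls. The comparison used 5 of the 10 samples of the series: 3 conditional knockout (cKO) and 2 control samples of splenic CD8+ T cells kept in culture for 24 h without stimulation. They were chosen by the genotype and treatment labels and the library names, and every gene in the table entered. The cKO mice were Dusp2fl/fl-E8I-cre+/-, and the controls Dusp2fl/fl-E8I-cre-/-. Both genotypes thus carry the floxed Dusp2 allele, all cKO mice and no control mouse carry cre, and cre and the loss of Dusp2 cannot be told apart. E8I is an enhancer of the Cd8a locus that drives cre in mature CD8+ T cells. The floxed stretch of Dusp2 is not described in the labels. Control mouse 1 and cKO mice 1 and 2 were male, and control mouse 2 and cKO mouse 3 were female. Sex goes with the digits that begin each mouse name, so these cannot be told apart. The title of the sample of cKO mouse 3 conflicts with its genotype label and library name, so results that rest on this mouse are also given without it. In the other 5 samples, cells of the same mice had been stimulated by CD3/CD28 beads over the same 24 h. They entered the same fit, and their values appear only beside the rested ones.

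DUSP2 is a nuclear dual-specificity phosphatase. It removes the activating phosphates from MAP kinases, the ERK, JNK and p38 enzymes that carry signals from the T cell receptor to transcription. Dusp2 itself is an immediate early gene of lymphocytes, so its product acts as a feedback brake. Resting splenic CD8+ T cells are mostly naive, with a smaller fraction of memory-phenotype cells that express CD44, CXCR3, EOMES and CCL5 even in mice never infected. By its title the study links DUSP2 to the BAF complex, an ATP-driven chromatin remodeller, and to effector programming, and the rested cells show what differs with genotype before a stimulus.

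The sequences below are the start regions of Dusp2 and of the 3 genes that follow it on the same chromosome and strand, because these genes carry the largest differences among the protein-coding genes called between the genotypes. Each runs 5′ to 3′ from 250 bases before to 50 bases after the annotated start, from RefSeq with build GRCm38.p6, which is not the build of the counts. They lie on the plus strand at chr2:127335909-127336208 (Dusp2), chr2:127338389-127338688 (Astl, the first of 2 starts), chr2:127362929-127363228 (Adra2b) and chr2:127424949-127425248 (Gpat2).
Dusp2: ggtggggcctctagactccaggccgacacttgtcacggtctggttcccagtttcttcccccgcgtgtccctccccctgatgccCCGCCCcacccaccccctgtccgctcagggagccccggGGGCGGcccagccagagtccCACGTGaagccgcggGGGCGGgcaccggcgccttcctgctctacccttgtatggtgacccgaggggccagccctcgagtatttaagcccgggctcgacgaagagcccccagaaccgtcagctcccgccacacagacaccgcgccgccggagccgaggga
Astl: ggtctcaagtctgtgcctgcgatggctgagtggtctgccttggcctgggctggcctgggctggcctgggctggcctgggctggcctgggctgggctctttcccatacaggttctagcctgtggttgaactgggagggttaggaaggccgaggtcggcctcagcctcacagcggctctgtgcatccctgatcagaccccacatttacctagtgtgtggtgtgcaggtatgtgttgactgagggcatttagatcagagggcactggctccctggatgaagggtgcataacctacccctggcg
Adra2b: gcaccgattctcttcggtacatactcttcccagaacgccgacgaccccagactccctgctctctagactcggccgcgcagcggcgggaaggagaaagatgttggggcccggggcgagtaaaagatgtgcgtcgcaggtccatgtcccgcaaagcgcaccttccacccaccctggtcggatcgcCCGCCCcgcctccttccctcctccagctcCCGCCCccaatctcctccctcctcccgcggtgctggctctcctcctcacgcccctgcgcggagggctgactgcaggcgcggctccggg
Gpat2: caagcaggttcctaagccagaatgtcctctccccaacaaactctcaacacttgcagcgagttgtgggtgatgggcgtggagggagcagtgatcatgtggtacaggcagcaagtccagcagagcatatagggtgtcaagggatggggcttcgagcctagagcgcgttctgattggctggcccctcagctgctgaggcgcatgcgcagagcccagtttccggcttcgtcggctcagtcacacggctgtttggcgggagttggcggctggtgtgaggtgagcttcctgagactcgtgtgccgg
Capitals mark matches, on either strand, to any of 6 short motifs, and the share of the table's 32851 start regions that hold each is given beside it. The TATA box was searched as TATAAA and is held by 13.6% of all start regions. The GC box, bound by factors of the Sp family, was searched as GGGCGG and its other strand, and 35.7% hold it. The AP-1 site, which lies downstream of the MAP kinases, was searched as TGANTCA (7.81% of start regions). The cAMP response element was searched as TGACGTCA (1.79%). For the binding core of ETS factors, the letters were CCGGAAG (8.86%). The E box, bound by MYC and related factors, was searched as CACGTG (7.15%). No marked matches overlap. The Dusp2 window held 3 GC boxes and 1 E box, and its GC content was 70.7%. The Adra2b window held 2 GC boxes at a GC content of 68.0%, and the Astl (61.0%) and Gpat2 (59.7%) windows held none of the 6. The median GC content of all start regions was 52.7%. A match is a description of the letters only. Of the 8 genes called below, 7 were found in this table.

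The 5 rested libraries held 51203786 to 59859139 counts and detected 23085 to 24109 genes each. Levels are given as CPM, counts scaled to library depth with TMM factors, and the limit that a count of 0 allows, 3 counts, corresponds to between 0.0501 and 0.0586 CPM. Over 10249 genes of at least 5 CPM, the log2 CPM of the 3 same-sex cKO and control pairs differed with an SD of 0.233 to 0.234. The male cKO mice, the only same-sex pair of the same genotype, differed with an SD of 0.145. By chi-square of the counts per degree of freedom, that pair (8.55) lay among the same-sex cKO and control pairs (7.61, 10.6 and 11.8). Pairs of different sex, whatever their genotype, differed with an SD of 0.343 to 0.412. The first principal component of the 5 libraries (66.7% of the variance) divided the sexes and the second (21.7%) divided the genotypes. The fit therefore held a term for sex, which the CPM values do not adjust for.

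**Figure D1:**
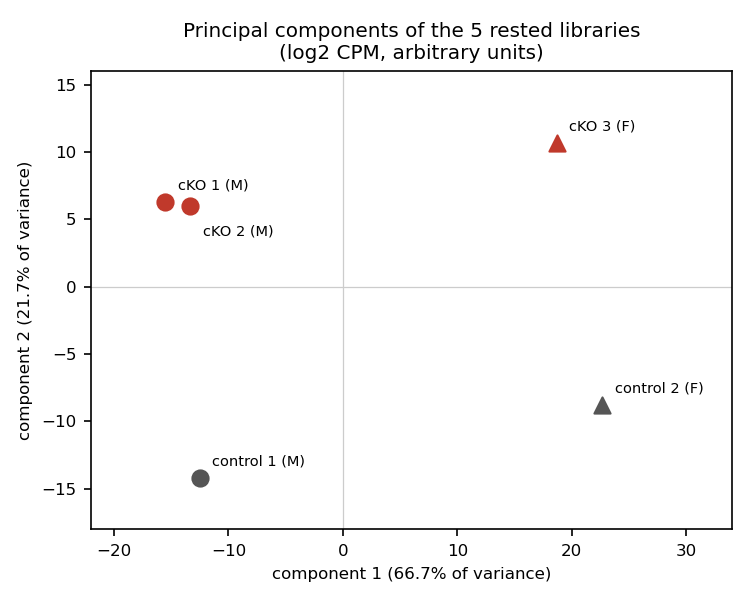
Principal components of the 5 rested libraries from log2 CPM, in arbitrary units (x axis component 1 with 66.7% of the variance, y axis component 2 with 21.7%); grey control, red cKO, circles male, triangles female. The male libraries lie left and the female libraries right, while all 3 cKO libraries lie above both controls.

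The cells carried the transcripts of CD8+ T cells at like levels in both genotypes. Cd8a stood at 624 and 655 CPM in the controls and at 648, 654 and 659 CPM in the cKO libraries, and Cd3e at 399 and 389 against 402, 400 and 384 CPM. For all 12 identity genes the 95% interval of the log2 fold change lay between -1 and 1 (median -0.02), and the sign of that median turned in 3 of 17 alternative analyses. Markers that define other cells ranged from absent to plainly detected. Ncr1 of NK cells and Hbb-bs of erythrocytes had 0 counts in all 5 libraries, and Ms4a1 of B cells, Csf1r of macrophages and Hba-a1 of erythrocytes had 5 to 15 counts over the 5 libraries together. Trdc of gamma-delta T cells stood at 7.65 to 9.67 CPM, and of the B cell list Cd79b at 4.13 to 5.46 CPM and Ighm at 275 to 354 CPM. In bulk RNA, fewer cells of a type and less RNA per cell cannot be told apart.

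Few genes differed between the genotypes in rested cells. Of 18966 genes tested, 8 were called (0.0422%), 5 of them higher in cKO (0.0264%) and 3 lower (0.0158%). A gene is called at a Benjamini-Hochberg adjusted p below 0.05 in edgeR's quasi-likelihood test. Unless another fit is named, this is the main fit, of all mice with a filter on low counts and a term for sex. Unadjusted p was below 0.05 for 783 genes, 504 higher and 279 lower. The fold changes lay close around 0: their median was 0.00 on the log2 scale, their middle 50% ran from -0.07 to 0.11, and 51.3% lay above 0. For 12820 of the 13382 genes at 1 CPM or more in either group (95.8%), the 95% interval lay between -1 and 1. Smaller differences are not covered by that statement, since the median standard error was 0.14. The libraries of the groups did not overlap for 1699 genes higher and 1649 genes lower in cKO, 17.7% of those tested, which is the background for each gene said below not to overlap. Without a filter on low counts, edgeR's test called 204 genes. Slc15a2 was among them (adjusted p = 6.94e-129), although its control mice lay far apart. A call in that fit alone is therefore not read as a difference between the genotypes. Genes named below as called in it are examples.

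**Figure D2:**
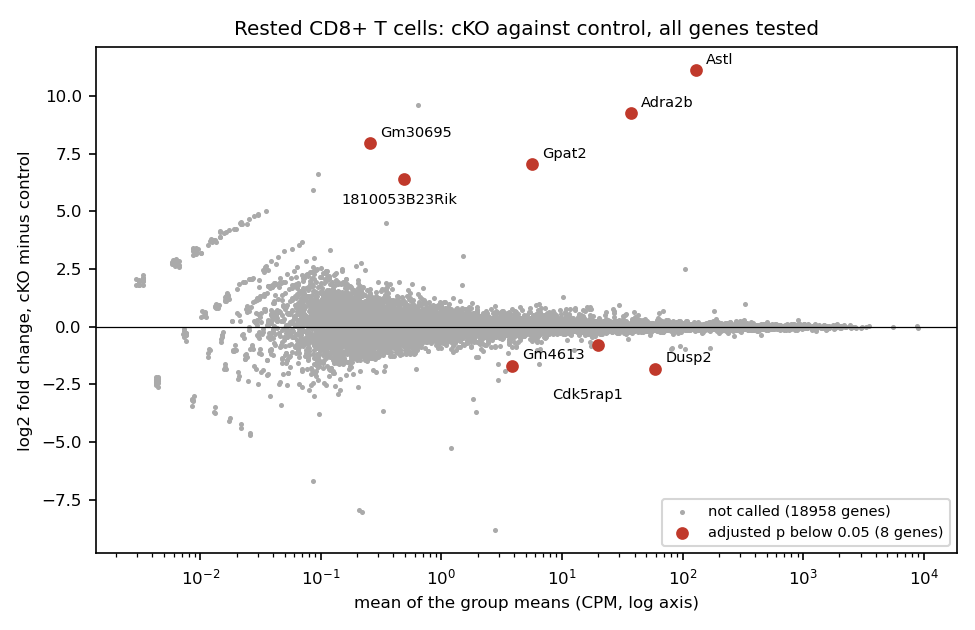
Log2 fold change of cKO against control in rested cells (y axis) against the mean of both group means in CPM (x axis, log scale) for 18966 genes; red points are the 8 called genes. Most genes lie near 0, with Astl, Adra2b and Gpat2 far above it and Dusp2, Gm4613 and Cdk5rap1 below it.

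Dusp2, the targeted gene (chr2:127178079-127180296, mm39, protein-coding), stood at 87.8 and 97.4 CPM in the controls and at 24.98, 24.8 and 28.1 CPM in the cKO libraries. All 3 cKO libraries, cKO mouse 3 included, lay far below both controls, and the 3 hardly differed among themselves. The log2 fold change was -1.82 (SE 0.08, 95% interval -1.98 to -1.65, adjusted p = 8.1e-08), and -1.85 without cKO mouse 3 (adjusted p = 9.87e-06). Summed over libraries, the ratio of counts in cKO to control per unit of depth was 0.281, with an exact 95% interval of 0.271 to 0.291 that covers counting error only. On the scale of log2(CPM + 0.5), used for all differences within a sex, the difference from the control of the same sex was -1.80 in males and -1.77 in the female pair. The value for males is always the mean of cKO mice 1 and 2 minus control mouse 1. After activation the same mice's libraries stood at 292 and 299 CPM in control and 56.3, 46.4 and 52.6 CPM in cKO.

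The 3 genes after Dusp2 rose from a few counts. Astl (chr2:127180559-127199571), a metalloendopeptidase gene of the oocyte, had 5 and 8 counts in the controls and 12272, 14297 and 14825 counts in the cKO libraries. Adra2b (chr2:127205128-127209141), a receptor gene for adrenaline and noradrenaline, had 9 and 5 counts in control and 3359, 3822 and 4869 in cKO. Gpat2 (chr2:127267119-127278012), an acyltransferase gene of the germ line, had 1 and 9 counts in control and 444, 588 and 789 in cKO. Every cKO library exceeded every control library many times over, and for all 3 genes the female cKO library held the most counts. The log2 fold changes by edgeR's test were 11.13 for Astl (SE 0.34), 9.26 for Adra2b (SE 0.38) and 7.05 for Gpat2 (SE 0.31). They rest on few control counts, and they moved with the mouse left out. For Astl they ran from 10.60 (without cKO mouse 3) to 11.43 (without control mouse 2). For Adra2b the range was 8.42 (without cKO mouse 3) to 9.88 (without control mouse 1). Gpat2 ranged from 6.39 (without control mouse 1) to 8.99 (without control mouse 2). The cause of these shifts was not tested. Per length of the deposited gene model, Astl reached 93.6, 94.8 and 105 FPKM (fragments scaled by gene length and depth) in the cKO libraries, where Dusp2 was left at 12.1, 12.1 and 13.8 FPKM. Adra2b reached 16.3, 16.2 and 22 FPKM and Gpat2 3.30, 3.80 and 5.44 FPKM, so that on this scale the levels fell in the order in which the genes follow Dusp2. All 3 were also called without cKO mouse 3 (adjusted p = 3.16e-09 for Astl and Adra2b and 6.06e-05 for Gpat2) and without each other mouse. Upstream of Dusp2, Stard7, a lipid transfer protein gene, stood at 89.4 and 95.5 CPM in control and 73.0, 73.3 and 74.3 CPM in cKO. Its groups did not overlap, and its log2 fold change of -0.31 (SE 0.06) did not pass (adjusted p = 0.245). It was called at about the same fold with sex effects per state (adjusted p = 0.0221), in the rested libraries alone with sex (0.0268) and in DESeq2's Wald test (0.00911).

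Cdk5rap1 (chr2:154177300-154214930), which encodes an enzyme that modifies mitochondrial tRNAs, stood at 25.7 and 25.1 CPM in the controls and at 13.8, 13.6 and 16.6 CPM in the cKO libraries. The female cKO library lay somewhat above the male ones and still far below both controls. Its log2 fold change was -0.78 (SE 0.11, adjusted p = 0.0154), with differences of -0.88 in males and -0.59 in the female pair. The call held without cKO mouse 3 (-0.94, adjusted p = 0.0105) and ended without control mouse 1 (-0.68, adjusted p = 0.193) or cKO mouse 1 (-0.75, adjusted p = 0.297). No other of the 30 tested genes of tRNA modification and mitochondrial translation was called. Of the 30, 17 lay above 0 (median 0.02, negative without cKO mouse 2, at -0.02). Mrps12, a mitochondrial ribosomal protein gene with the next smallest p of that list, stood at 12 and 11.6 CPM in control and 13.9, 14.5 and 13.5 CPM in cKO (log2 fold change 0.24, SE 0.09, adjusted p = 1.0).

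The remaining called genes were non-coding or pseudogenes with low counts. The lncRNA gene 1810053B23Rik (chr16:93139392-93163556) stood at 0.0171 and 0 CPM in control and at 0.984, 1.18 and 0.719 CPM in cKO. The lncRNA gene Gm30695 (chr16:93269055-93283962) stood at 0 CPM in both controls and at 0.542, 0.400 and 0.590 CPM in cKO. Neither overlapped between the groups. Gm30695 had 82 counts over the cKO and 0 over the control libraries, and the exact 95% interval of the ratio per unit of depth, for counting error only, began at 15.5. The log2 fold changes were 6.4 for 1810053B23Rik and 7.97 for Gm30695. Without cKO mouse 3 they were 5.94 and 7.78, and both calls ended (adjusted p = 0.0839 and 0.41). That of Gm30695 also ended without control mouse 1 (adjusted p = 0.0671), control mouse 2 (0.163) or cKO mouse 1 (0.321).

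Gm4613 (chr7:25528027-25528302), a processed pseudogene, which may exchange reads with its parent gene, stood at 5.30 and 6.33 CPM in control and at 1.91, 2.00 and 1.6 CPM in cKO. The groups were well apart. Its log2 fold change was -1.68 (SE 0.18, adjusted p = 0.00186), -1.45 without cKO mouse 3 (adjusted p = 0.0105) and -1.69 without cKO mouse 1, where the call ended (adjusted p = 0.0657). In activated cells of the same mice it stood at 3.96 and 4.53 CPM in control and 4.48, 4.55 and 3.35 CPM in cKO. Those groups overlapped, with a log2 fold change of -0.06 (SE 0.18). The interaction, the rested minus the activated log2 fold change, was -1.62 (SE 0.25, unadjusted p = 2.55e-05) and did not pass in edgeR's test (adjusted p = 0.248). For Dusp2 the interaction was 0.68 (SE 0.11, adjusted p = 0.248), and for Cdk5rap1 0.07 (SE 0.15, adjusted p = 1.0). Over all genes the interaction was called for 0 in the main fit, with 519 at an unadjusted p below 0.05, and for 3 in DESeq2's Wald test.

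**Figure D3:**
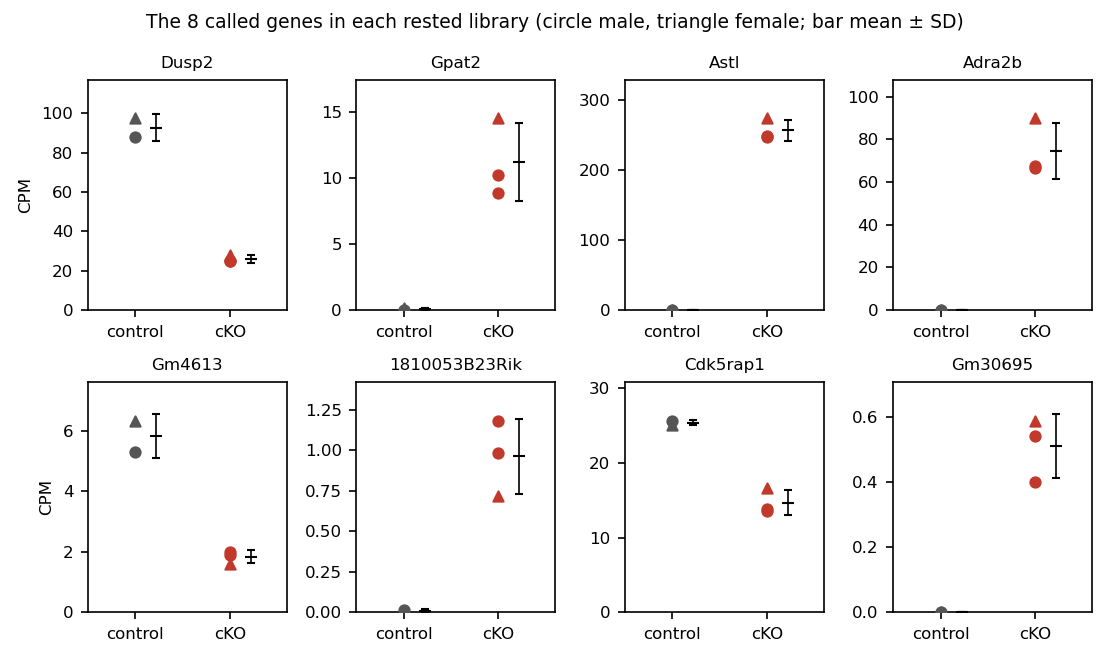
CPM of the 8 called genes in each rested library (y axes from 0, each panel with its own scale); circles male, triangles female, bars the group mean ± SD (n = 2 control, n = 3 cKO). In every panel the control and cKO points are apart, with Dusp2, Gm4613 and Cdk5rap1 lower in cKO.

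Below the threshold, the genes with the smallest p among those with no overlap and at least 5 CPM mostly showed small differences. Among those higher in cKO were Sh3bp2, an adaptor of antigen receptor signalling (log2 fold change 0.40, SE 0.08), Sidt1, a membrane protein gene (0.29, SE 0.07), Setd4, a methyltransferase gene (0.41, SE 0.11), and Mapre2, a microtubule end-binding protein gene (0.30, SE 0.08). Their adjusted p were 0.339, 0.867, 0.911 and 0.941. Sh3bp2 stood at 5.02 and 4.67 CPM in control and 6.12, 6.54 and 6.4 CPM in cKO. The other 8 of the 12 genes named by this rule were Rpl39, Tacc2, Tmem254a, Irf4, Mapk11, Fam204a, Ly6c2 and Ctla2b, with log2 fold changes from 0.24 (Fam204a) to 0.96 (Tmem254a). Tmem254a, which encodes a transmembrane protein, stood at 19.8 and 21.1 CPM in control and 32.1, 46.1 and 39.7 CPM in cKO. It did not pass in all mice (adjusted p = 0.996) and was called without cKO mouse 1 (adjusted p = 0.00537), without cKO mouse 2 (0.0115) and in DESeq2's Wald test of all mice (0.000105).

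The 12 genes named by the same rule on the lower side had log2 fold changes from -0.16 (Mex3c) to -0.39 (Pard6g). Among them were Stard7, Adk, Galnt4, Pgm2, Rnaset2a, Arhgap31, Gpsm1, Pip4k2a, Atl2, Pard6g and Mex3c. Adk, the adenosine kinase gene, stood at 34.1 and 37.2 CPM against 30.5, 27.8 and 30.8 CPM (log2 fold change -0.24, SE 0.07, adjusted p = 0.996). Its lowest control library lay above its highest cKO library by little.

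The MAP kinase phosphatase family showed no further member called in the main fit. Of 23 Dusp and related phosphatase genes tested, 10 lay above 0 (median -0.03), and 1, Dusp2, was called. Dusp1, another nuclear MAP kinase phosphatase and immediate early gene, stood at 26.3 and 38.2 CPM in control and 26.9, 20.5 and 29.9 CPM in cKO. The female libraries were the highest of their genotype, and the groups overlapped (log2 fold change -0.27, SE 0.12, adjusted p = 1.0). Dusp4, which acts on ERK in the nucleus, stood at 0.806 and 0.479 CPM in control and 1.35, 1.15 and 0.977 CPM in cKO (0.87, SE 0.37, adjusted p = 1.0). Without a filter on low counts, edgeR's test called it (adjusted p = 0.00972). Dusp5 and Dusp6, ERK phosphatases of the nucleus and the cytoplasm named here for their role after their values were seen, stood at 9.31 and 8.14 against 13.3, 8.51 and 9.64 CPM and at 5.97 and 7.33 against 6.67, 6.05 and 6.86 CPM. For 16 of the 23 the interval lay between -1 and 1.

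The MAP kinases themselves and the kinases upstream of them had no member called in the main fit. Over all genes 0.0422% were called. Of 37 tested, 14 lay above 0 (median -0.03), and 35 had an interval between -1 and 1. Among all genes at 1 CPM or more, 95.8% had such an interval. The groups did not overlap for 2 of the 37 higher and 7 lower, against 17.7% of all genes. Without a filter on low counts, edgeR's test called Map3k8, Mapk11 and Mapk12. Map3k8, a kinase that activates the ERK pathway, had the smallest p. It stood at 14.7 CPM in the male and 7.68 CPM in the female control, and at 17.6 and 18.9 CPM in the male and 13.3 CPM in the female cKO libraries. Within each sex cKO lay above control, although the female cKO library was below the male control. Its log2 fold change was 0.51 (SE 0.11, adjusted p = 0.352 in all mice and 0.0409 without control mouse 1, where it was called). DESeq2's Wald test called it in all mice (adjusted p = 0.0173). Mapk11, a p38 kinase gene, stood at 20.6 and 13.8 CPM against 25.9, 22.8 and 20.7 CPM (0.39, SE 0.11, adjusted p = 1.0). Mapk14, another p38 gene, stood at 129 and 126 CPM against 130, 127 and 122 CPM. It too was named for its role after its values were seen, and its groups overlapped.

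Genes that answer to these pathways were not called in the main fit. Without a filter on low counts, edgeR's test of all mice called Nr4a1, Egr1 and Egr2. Of 34 ERK response genes, 20 lay above 0 (median 0.04, and -0.01 when only the rested libraries were fitted without sex). Nr4a1, a nuclear receptor gene induced by T cell receptor signals, stood at 2.23 and 3.41 CPM in control and 3.51, 3.76 and 5.13 CPM in cKO. The lowest cKO library exceeded the highest control library by little, and within each sex cKO was higher, by 0.60 in males and 0.53 in the female pair. The log2 fold change was 0.62 (SE 0.12, adjusted p = 0.184), and it was called with sex effects per state (0.65, adjusted p = 0.019) and in DESeq2's Wald test (0.61, adjusted p = 0.00614). Egr3, another such gene, had 0.48 (SE 0.16), and Spred1, a feedback inhibitor of the ERK pathway, -0.28 (SE 0.11), both at an adjusted p of 1.0. Of 25 JNK and p38 substrates and response genes, all 25 had an interval between -1 and 1, with log2 fold changes from -0.07 to 0.15. Their median was 0.02, and negative without control mouse 1 (-0.01) or control mouse 2 (-0.00).

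Subunits of the BAF complex, named in the title of the study, did not differ detectably at the RNA level in rested cells. Of 28 tested, 11 lay above 0 (median -0.02, between -0.04 and -0.01 over 17 alternatives), 0 were called, and 0 had an unadjusted p below 0.05. Over all genes, 783 of 18966 had such a p. For 26 of the 28 the interval lay between -1 and 1. The other 2 were Dpf1, at or near the floor, and Smarcd3, at 0.124 to 0.480 CPM. The ATPase gene Smarca4 stood at 234 and 224 CPM in control and 231, 233 and 232 CPM in cKO, and Arid1a, the DNA-binding subunit of canonical BAF, at 665 and 661 against 640, 658 and 688 CPM. Smarcd1, a core subunit with the smallest p of the detected ones, stood at 69.2 and 68.6 CPM in control and 64.8, 63.2 and 66.0 CPM in cKO. Its groups did not overlap, by a small margin, and its log2 fold change was -0.08 (SE 0.06, adjusted p = 1.0). The list's summed level was 7354 and 7206 CPM in control and 7187, 7257 and 7254 CPM in cKO. Of 33 genes of other chromatin complexes, 12 lay above 0 (median -0.02) and all 33 had an interval between -1 and 1. These are transcript levels, and they say nothing of the proteins, their phosphorylation or the activity of the complex.

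Most genes of the memory phenotype lay higher in cKO, and no member was called in the main fit. DESeq2's Wald test called Ccl5 (adjusted p = 0.00103). Without a filter on low counts, edgeR's test of all mice called 204 genes, among them Ccl5, Eomes, Ctla2a, Ly6c2, Smpdl3b and Cd44. It also called Slc15a2, whose control mice lay far apart. Of 27 memory-phenotype genes tested, 24 lay above 0 with a median log2 fold change of 0.45, against 51.3% above 0 and a median of 0.00 over all genes. The members are not replicates, and the list was chosen with earlier results of these data known. Between libraries of a genotype, the list's mean log2(CPM + 0.5) varied with a pooled SD of 0.45, not adjusted for sex. That is as large as the median, and whether the shift exceeds it was not tested. Within males 25 of 27 lay above 0 (median 0.27), within the female pair 22 (median 0.39), and 22 did so in both. Ccl5, a chemokine gene that memory-phenotype cells hold ready, stood at 206 CPM in the male and 57.4 CPM in the female control, at 329 and 257 CPM in the male and at 110 CPM in the female cKO libraries. Each cKO library was above the control of its sex, and the sexes differed more than the genotypes did. Its log2 fold change was 0.68 (SE 0.16, adjusted p = 0.941). Eomes, a transcription factor gene of memory and effector CD8+ T cells, stood at 25.8 and 12.4 CPM in control and 46.4, 29.1 and 25.6 CPM in cKO (0.76, SE 0.29, adjusted p = 1.0). Ly6c2, a surface antigen gene whose groups did not overlap, stood at 38.5 and 30.7 CPM against 62.8, 44.7 and 42.9 CPM (0.50, SE 0.14, adjusted p = 1.0). Smpdl3b, which encodes a membrane lipid phosphodiesterase, had the highest log2 fold change of the list (0.91, SE 0.26, adjusted p = 0.996). Cd44, used to define these cells by flow cytometry and named for that after its values were seen, stood at 39.3 and 14.6 CPM in control and 59.4, 39.9 and 24.4 CPM in cKO.

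Sex moved with this list. Between the control mice, the female lay below the male by a median of 0.58 on the log2 scale (difference -0.58), a wider gap than that between the genotypes. By mouse, the summed level was 3213 CPM in the male and 2489 CPM in the female control, 3920 and 3212 CPM in the male cKO mice and 2830 CPM in the female one. cKO mouse 2 stood level with the control of its sex, and cKO mouse 1 well above it. With cKO mouse 1, 2 or 3 left out the list's median was 0.26, 0.59 and 0.45, and with control mouse 1 or 2 left out 0.57 and 0.32. It was 0.78 when mice 1 and 2 alone were fitted with their number as a block.

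The number of called genes depended on which mouse was left out. With control mouse 1 left out it was 15 (6 of the 8 called in all mice among them), and with control mouse 2 left out 11 (7 of the 8). Dropping cKO mouse 1 gave 7 (5 of the 8), dropping cKO mouse 2 gave 25 (all 8), and dropping cKO mouse 3 gave 11 (6 of the 8). The 25 without cKO mouse 2 were 20 higher and 5 lower. Among the higher ones were Ccl5, Ctla2a, Eomes and Ly6c2 of the memory list. Also called were Il18rap, a chain of the interleukin-18 receptor, Samd3, Runx2, a transcription factor gene, Cxcr5, a chemokine receptor gene, and Lilrb4b, an inhibitory receptor gene. Il18rap stood at 39.6 CPM in the male and 20.1 CPM in the female control, and at 67.3, 46.0 and, in the female, 35.2 CPM in cKO. Samd3 stood at 17.8 and 5.46 CPM in control and 32.5, 21.6 and 13.2 CPM in cKO. In both, and in the other 6 genes plotted below, every cKO library exceeded the control of its sex, while the female cKO library lay below or level with the male control in all but Ly6c2. The log2 fold change of Il18rap was 0.62 in all mice (adjusted p = 1.0) and 0.78 without cKO mouse 2 (adjusted p = 0.00169), and that of Eomes 0.76 and 0.92 (adjusted p = 1.0 and 0.00236). With cKO mouse 3 left out and nothing else changed, none of these genes was called. When the number of mice 1 and 2 was also used as a block, Eomes, Ctla2a, Ly6c2 and Cxcr5 were called (adjusted p = 0.0055, 0.0226, 0.0358 and 0.0391).

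**Figure D4:**
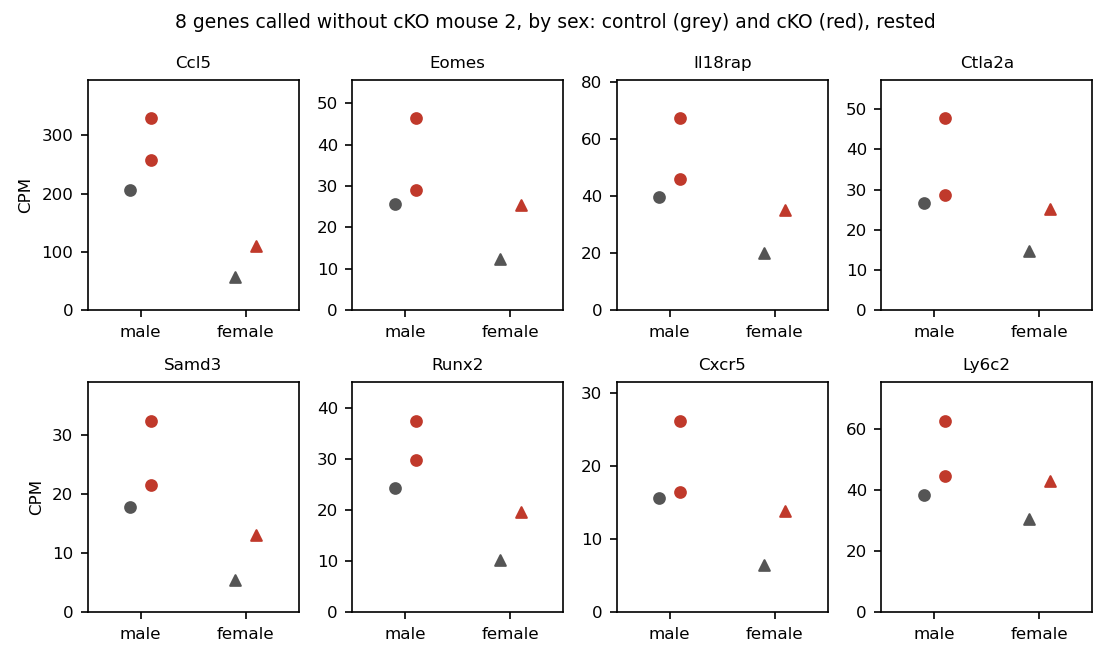
CPM of 8 genes called higher without cKO mouse 2 (Ccl5, Eomes, Il18rap, Ctla2a, Samd3, Runx2, Cxcr5 and Ly6c2), chosen after their values were seen, in the rested libraries by sex (y axes from 0, each panel with its own scale); grey control, red cKO, circles male, triangles female. In each panel the red points lie above the grey point of the same sex, and the female points lie below the male points of the same genotype.

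Markers of NK and innate-like lymphocytes lay higher beside the memory list. Of 24 tested, 19 lay above 0 (median 0.38), 0 were called in the main fit and 7 had an unadjusted p below 0.05, against 783 of 18966 over all genes. Without a filter on low counts, edgeR's test called Klre1 (adjusted p = 0.00884). The members are not replicates. The median was 0.88 without control mouse 1, 0.23 without control mouse 2 and 0.16 without cKO mouse 1. Klre1, an NK receptor gene, stood at 1.47 and 0.745 CPM in control and 4.0, 2.02 and 1.51 CPM in cKO (log2 fold change 1.05, SE 0.30, adjusted p = 1.0). Klrc2, another, stood at 4.03 and 1.08 CPM against 7.41, 4.84 and 1.79 CPM. In both genes the female library was the lowest of its genotype. Over the list the female control lay below the male control by a median of 0.43 (difference -0.43), as in the memory list. Not every member did so. Klra9 stood at 0.240 CPM in the male and 0.284 CPM in the female control. In cKO it stood at 0.301 and 0.574 CPM in the males and 0.940 CPM in the female. Markers that define such cells were low but not all absent: Ncr1 had 0 counts, Tyrobp stood at 0.326 and 0.0710 CPM in control and at 0.0369 to 0.174 CPM in cKO, and Fcer1g at 0.566 and 0.798 against 0.443 to 0.482 CPM. Klrb1c, the NK1.1 gene, stood at 0.720 and 0.479 CPM against 1.06, 0.644 and 0.645 CPM, and Trdc, the constant region of the delta chain, at 9.67 and 8.14 against 7.65, 8.18 and 7.97 CPM. The summed level of the whole list was 387 and 329 CPM in control and 424, 389 and 298 CPM in cKO, the female last. Of 15 markers of CD4+ and regulatory T cells, 10 lay above 0 (median 0.20), and Cd4 itself stood at 0.326 and 0.160 CPM in control and 0.783, 0.679 and 1.22 CPM in cKO (1.87, SE 0.50, adjusted p = 0.941). Their summed level was 127 and 111 CPM in control and 150, 126 and 121 CPM in cKO. The part of these markers in the difference of the memory list was not tested.

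Effector genes lay slightly higher, with 0 called in the main fit. DESeq2's Wald test called Irf4 of the transcription factors (adjusted p = 0.0422) and Ccl5 of the cytokines. Without a filter on low counts, edgeR's test called, among others, both of them, Zeb2, Eomes and Tbx21. Of the cytotoxic granule genes it called Gzma (adjusted p = 0.0131) and Ctsw (0.00023). Of 16 effector transcription factor genes, 12 lay above 0 (median 0.19). Irf4, induced in proportion to T cell receptor signal, stood at 5.62 and 6.05 CPM in control and 9.24, 7.81 and 7.87 CPM in cKO, so that the groups did not overlap (0.53, SE 0.14, adjusted p = 0.996). Zeb2, of terminal effector cells, stood at 0.634 and 0.550 CPM against 1.49, 1.11 and 0.885 CPM (0.91, SE 0.23, adjusted p = 0.879). After activation the same contrast gave -0.10 for Irf4 and 0.72 for Zeb2, neither called. Tbx21, the gene of T-bet, named for its role after its values were seen, stood at 9.21 and 3.05 CPM in control and 15.9, 10.3 and 5.72 CPM in cKO, with overlapping groups. Of 23 cytotoxic granule genes, 20 lay above 0 (median 0.15, 0 called). Prf1, the perforin gene, named in the same way, stood at 38.1 and 36.6 CPM against 43.7, 36.8 and 33.8 CPM. Gzma stood at 0.206 and 0.532 CPM in control and 0.201, 0.748 and 2.14 CPM in cKO, the female library highest (1.66, SE 0.61, adjusted p = 1.0). Gzmb stayed between 0.141 and 0.996 CPM in all 5. Of 19 cytokine and chemokine genes, 15 lay above 0 (median 0.37, and 0.13 without control mouse 2), with 0 called. Tnf stood at 1.94 and 2.91 CPM in control and 2.13, 2.99 and 4.07 CPM in cKO, with overlapping groups (0.41, SE 0.16, adjusted p = 1.0).

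Genes of naive cells and of quiescence lay close to 0. Of 19 naive and memory transcription factor genes, 4 lay above 0 (median -0.05), 0 were called and 18 had an interval between -1 and 1. Bach2, a repressor of effector differentiation, stood at 334 and 357 CPM in control and 322, 308 and 335 CPM in cKO (-0.09, SE 0.05, adjusted p = 1.0). Of 25 homing and quiescence genes, 5 lay above 0 (median -0.05, 0.02 without control mouse 2), and 24 had an interval between -1 and 1. Nsg2, of recently made naive T cells, stood at 101 and 70.5 CPM against 123, 109 and 86.1 CPM, higher in cKO within each sex (0.24, SE 0.06, adjusted p = 0.941). All 30 genes of the T cell receptor complex and its proximal signalling had an interval between -1 and 1 (14 above 0, median -0.00, of either sign over the alternatives).

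Inhibitory receptors divided. Of 28 tested, 17 lay above 0 (median 0.08, 0 called in the main fit). Without a filter on low counts, edgeR's test called, among others, Lilrb4b and Lilrb4a. Lilrb4b, called in DESeq2's Wald test (adjusted p = 0.0112), stood at 3.88 and 1.37 CPM in control and 6.93, 5.57 and 2.73 CPM in cKO (0.79, SE 0.20, adjusted p = 0.911), and Lilrb4a at 3.28 and 1.84 against 4.98, 4.75 and 2.62 CPM (0.53, SE 0.14, adjusted p = 0.941). Reads of these near-identical paralogs can be exchanged. Vsir, the gene of the checkpoint VISTA that keeps naive T cells quiet, stood at 532 and 522 CPM in control and 501, 501 and 459 CPM in cKO (-0.13, SE 0.05, adjusted p = 1.0).

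Of the p53 targets and apoptosis genes 0 were called in the main fit. Cdkn1a and Phlda3 were called by DESeq2's Wald test (adjusted p = 0.0233 and 0.00911) and by edgeR's test without a filter on low counts. Cdkn1a, the gene of the cell cycle inhibitor p21, stood at 1.63 and 1.42 CPM in control and 2.77, 2.61 and 1.95 CPM in cKO. The groups did not overlap, and the log2 fold change was 0.64 (SE 0.11, adjusted p = 0.116, and 0.14 to 0.75 with each mouse left out in turn). Phlda3, an inhibitor of AKT induced by p53, stood at 0.532 and 0.231 CPM against 0.944, 0.870 and 1.01 CPM (1.28, SE 0.26, adjusted p = 0.338). Aen, an apoptosis-enhancing nuclease gene, stood at 38 and 35.9 CPM against 40.7, 41.0 and 43.3 CPM (0.18, SE 0.06, adjusted p = 1.0), and Bcl2, which protects from apoptosis, had 0.26 (SE 0.08). Of the 34 genes of the list, 23 lay above 0, with a median of 0.06 and 31 intervals between -1 and 1. Of 38 cell cycle genes 26 lay above 0 (median 0.04, with the other sign in 5 of 17 alternatives). Cdc6, which loads the replicative helicase, stood at 1.30 and 1.83 CPM in control and 2.13, 2.40 and 2.67 CPM in cKO (0.72, SE 0.19, adjusted p = 0.911).

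Metabolic and stress genes showed 0 called in the main fit. Without a filter on low counts, edgeR's test called mt-Nd4l (adjusted p = 7.83e-08) and Hmox1 of the stress genes (4.43e-06). Of 32 nuclear genes of oxidative phosphorylation, 19 lay above 0 (median 0.01, with the other sign in 5 of 17 alternatives), and all 32 had an interval between -1 and 1. Cycs, the cytochrome c gene, stood at 13.7 and 13.6 CPM in control and 16.6, 17.6 and 14.3 CPM in cKO (0.24, SE 0.09, adjusted p = 1.0). Of 23 glycolysis genes 19 lay above 0 (median 0.08, -0.03 without control mouse 2), and of 20 heat shock and handling stress genes 16 (median 0.06, -0.02 without control mouse 2). Of the 13 mitochondrially encoded genes 1 lay above 0 (median -0.07, and -0.00 without cKO mouse 3). mt-Nd4l, a complex I subunit, stood at 23.2 and 23.5 CPM in control and 17.9, 21.7 and 8.70 CPM in cKO, so that cKO mouse 3 was the low library. mt-Nd3 stood at 7.53 and 6.17 CPM against 5.92, 6.33 and 2.75 CPM, with the same library lowest. Of 40 interferon-stimulated genes 25 lay above 0 (median 0.04, with the other sign in 2 of 17 alternatives), and of 29 NF-kB subunits, inhibitors and targets 21 (median 0.04).

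**Figure D5:**
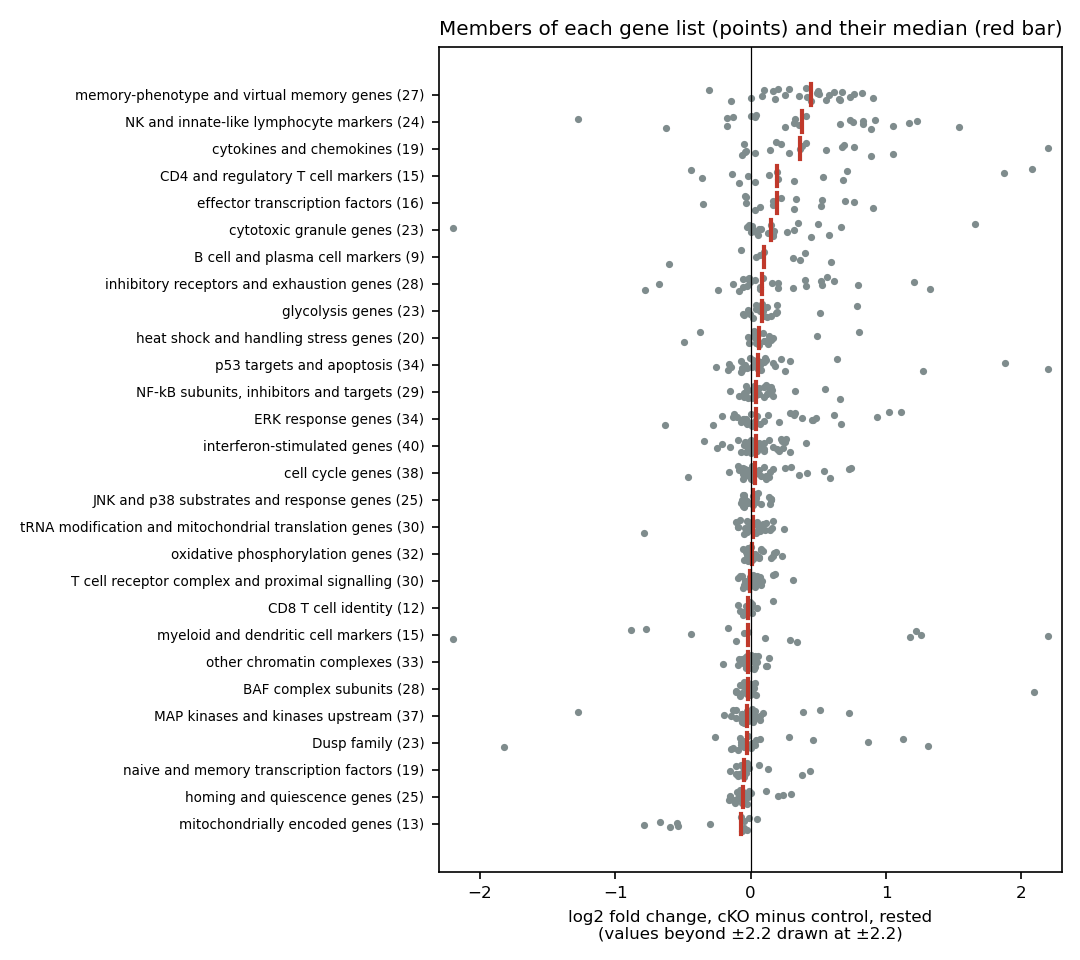
Log2 fold change of cKO against control in rested cells (x axis; values beyond ±2.2 are drawn at ±2.2) for the tested members of 28 gene lists (grey points, number tested in brackets) and their median (red bar). The medians of the memory-phenotype, NK and cytokine lists lie highest, at 0.45, 0.38 and 0.37, and those of the signalling and chromatin lists lie close to 0.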

How the data were processed

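RNA of the 5 rested and 5 activated samples was sequenced from stranded mRNA libraries. The submitters' processing notes name the build mm39 and the tools Subread, FastQC and MultiQC. Tool versions, annotation, aligner settings and strand counting were each not given in the sources used here. The authors deposited whole-number counts and FPKM values for 57010 genes, of which 24326 had no count in any library. How reads shared by paralogs or overlapping genes were counted is thus unknown.

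Groups follow the labels. The members and gene lists were chosen with earlier results of these data known. The deposited counts were tested with edgeR 4.0.16 (limma 3.58.1, R 4.3.3): filterByExpr, TMM, a quasi-likelihood fit of group and sex over all 10 libraries, contrasts of cKO minus control within each state and their difference, and Benjamini-Hochberg adjustment. Pooling all libraries gave 1 estimate of the spread. The rested libraries held at least 51203786 counts, so counting error was small except for low genes. The mice are few, and p-values rest on the spread among libraries within groups, pooled over both states. The main fit held no term for the mouse, so both libraries of a mouse entered as independent. Named genes were Dusp2, the called genes, the 12 higher and 12 lower uncalled genes of smallest p with at least 5 CPM and no overlap, up to 4 genes per list by smallest p, and up to 6 genes per left-out mouse; predicted genes and receptor segments were left out of the last and of the 24. A gene that this rule names is not reported here.

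Alternatives were another scaling, filters, sex terms, rested libraries alone, a replicate block, DESeq2 1.42.0, limma-trend on the deposited FPKM (pseudocount 0.5), a test against a minimum fold and leaving out each mouse. The rested and activated libraries of a mouse come from the same animal by the labels. After removal of group means, the pair of libraries correlated at 0.36 in both control mice (equal by construction with 2 mice) and at 0.25, 0.15 and 0.33 in the cKO mice. Sex was not removed, and both libraries of a mouse share it, so these correlations include any effect of sex. With sex in the model, the consensus correlation within a mouse was -0.135.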

Additional observations from a re-analysis of the deposited data

How the results depend on the processing

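The number of genes called between the genotypes at rest was 8 and depended on the settings. It was 204 without a filter on low counts, 5 with a filter at 5 CPM in 2 libraries, 29 in DESeq2's Wald test, 5 in limma-trend on FPKM, 5 in the test against a minimum fold, and 7 to 25 with each mouse left out. Genes higher in cKO numbered 5, and 135 without a filter, 3 with the 5 CPM filter, 3 in the rested libraries alone without sex, 21 in DESeq2, 3 in limma-trend, and 4 to 20 with each mouse left out. Genes lower numbered 3, and 69 without a filter, 5 with sex effects per state, 5 in the rested libraries alone with sex, 8 in DESeq2, 1 against a minimum fold, and 2 to 7 with each mouse left out. The interaction was called for 0 genes, and for 39 without a filter, 3 in DESeq2 and 0 to 3 with each mouse left out. The cause of these changes was not tested. All 8 genes were also called in DESeq2, without a filter, with DESeq2's size factors, without a sex term, with sex effects per state and in the rested libraries alone with sex. The 5 CPM filter and limma-trend each lost 1810053B23Rik, Cdk5rap1 and Gm30695, the test against a minimum fold Gm4613, Cdk5rap1 and Gm30695, and the rested libraries alone without sex Gpat2 and Gm30695. 1810053B23Rik and Gm30695 lay below 5 CPM in every library, so that filter removed them before the test. In limma-trend the pseudocount of 0.5 exceeds their cKO means (0.163 and 0.358 FPKM). Cdk5rap1, at -0.78, could not pass a minimum log2 fold change of 1. A fit that leaves out a control assumes that the lone control varies like the other groups.

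The replicate block of the mouse, pairing the rested and activated libraries as a random effect, called 10 genes, 5 of them lower, with all 8 among them (consensus correlation -0.135). A replicate block by the number that mice 1 and 2 of both genotypes share also drops cKO mouse 3, which alone gave 11 calls. It called 20 genes, 13 higher and 7 lower, with all of the 8 but Gm30695 among them, and 3 in the interaction. Eomes, Ctla2a and Ly6c2 of the memory list were among the 20. Those numbers mark no shared animal. Of 152 named genes, 16 changed sign in at least 1 alternative.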

Other observations

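Without cKO mouse 3, some genes were called in which the male cKO libraries alone stood apart. Rpl37a, a ribosomal protein gene, stood at 203 and 213 CPM in the controls, at 558 and 555 CPM in the male cKO mice and at 232 CPM in the female one. After activation it stood at 194 and 185 CPM in control and at 173, 220 and 198 CPM in cKO. Mir682, a microRNA gene, showed the opposite: 210 and 231 CPM in control, 59.98 and 72.7 CPM in the male cKO mice and 227 CPM in the female one. Capn11, a calpain protease gene, stood at 0.292 and 0.195 CPM in control, 3.21 and 4.91 CPM in the male and 0.203 CPM in the female cKO mice. Without that mouse the log2 fold changes were 1.42, -1.70 and 4.19 by edgeR's test (adjusted p = 0.00106, 0.000674 and 0.00984). In all mice none of the 3 was called in the main fit, and all 3 were called without a filter on low counts.

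Slc15a2, a peptide transporter gene named after its values were seen, stood at 0.0343 CPM in control mouse 1 and 179 CPM in control mouse 2, and at 35.5, 200 and 131 CPM in the cKO mice (log2 fold change 2.49, adjusted p = 1.0). Without a filter on low counts, edgeR's test called it (adjusted p = 6.94e-129) despite that gap between the controls. Dlg5, a scaffold protein gene, was low in both females: it stood at 20.7 and 1.93 CPM in control and at 30.1, 25.6 and 6.29 CPM in cKO. Of 10338 genes of at least 5 CPM, the within-sex difference between cKO and control exceeded 0.5 on the log2 scale in 45 in males and 177 in the female pair, while the control mice of different sex differed by that much in 254. The male difference sets the mean of cKO mice 1 and 2 against control mouse 1. The other differences compare single libraries, so the counts are not like for like.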
